A study of Mus musculus with 40 samples.

Results

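The activity-induced immediate early genes described here were Fos, Fosb, Junb, Egr1, Egr3, Arc, Npas4, Nr4a1, Nr4a3 and Dusp1. They were chosen by symbol as a set that neurons switch on after firing, and each symbol matched 1 gene, so the set comprised 10 of the 47643 genes in each count table. RNA-seq libraries were made from 2 brain regions, hippocampus and frontal cortex, of formerly germ-free mice of the outbred Swiss Webster stock after colonization with human fecal microbiota. Each cohort of recipients received the stool that 1 of 10 donors gave before starting a ketogenic diet (pre-KD) or while on it (post-KD), which gave 20 cohorts and 40 libraries, 10 per region and condition. The libraries address how colonization with post-KD rather than pre-KD microbiota affects gene expression in the brain. The mice in every group were wild-type and were 6 to 8 weeks old at the start, were kept on control chow rather than on the ketogenic diet, and were dissected on day 4 after colonization. The study also tested recipients for seizures induced by corneal stimulation, and whether the mice used for RNA had been stimulated is not given in the sources used here, so levels cannot be read as those of undisturbed animals. Each library was a pool of 6 mice, so the replicate was the cohort, and neither the spread between mice nor a group of mice left germ-free was part of these comparisons. Both regions of a cohort came from the same mice, and each donor linked 1 pre-KD cohort with 1 post-KD cohort.

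Immediate early genes are transcribed within minutes of synaptic stimulation without new protein synthesis, when calcium entry and kinase signalling act on transcription factors already bound to their promoters, such as CREB and SRF. Most of their transcripts decay quickly, so their level in a tissue reflects the recent past, and they are widely used to map neurons activated by seizures, stress or learning. Fos, Fosb and Junb encode subunits of the AP-1 transcription factor, Egr1 and Egr3 encode zinc finger transcription factors, Npas4 a neuron-specific transcription factor, Nr4a1 and Nr4a3 orphan nuclear receptors, Arc a synaptic protein that drives internalization of AMPA receptors, and Dusp1 a phosphatase that switches off MAP kinases. In bulk tissue, fewer cells of a type and less RNA per cell cannot be told apart.

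Between 1140756 and 1947416 reads per hippocampal library and between 1188447 and 2095352 per frontal cortical library were counted on genes. The methods give the recipients as female, yet the 8 libraries of the cohorts of donors 9 and 10 held 81.3 to 175 CPM (read counts scaled to library size) summed over 4 Y-linked genes and 3.27 to 26.6 CPM of Xist, whereas the other 32 libraries held 0 to 16.4 and 402 to 770 CPM. Some values are therefore also given without these cohorts. Markers of other tissues differed between the regions, with striatal neuron markers summing to 406 to 881 CPM in the frontal cortical libraries against 25.3 to 283 in the hippocampal ones, and choroid plexus markers to 511 to 4576 CPM in the hippocampus against 7.34 to 614. The hippocampal label was borne out, because 5 of 5 hippocampal neuron markers were lower in the frontal cortex, 4 of them at an adjusted p under 0.05. Cortical neuron markers separated the regions less, with 3 of 6 higher and 1 lower in the frontal cortex without adjustment (edgeR). Their sums overlapped, at 230.5 to 506.8 CPM in the hippocampal and 304.6 to 544.9 CPM in the frontal cortical libraries.

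In mouse build GRCm38 with GENCODE M21, Fos lies at chr12:85473890-85477273 on the plus strand, Fosb at chr7:19302696-19310051 on the minus strand and Junb at chr8:84974484-84978718 on the minus strand. Egr3 lies at chr14:70077203-70082614 (plus) and Npas4 at chr19:4984355-4990316 (minus). The nuclear receptor gene Nr4a1 spans chr15:101254269-101274795 (plus) and Nr4a3 chr4:48045153-48086447 (plus), while Arc lies at chr15:74669083-74672570 (minus) and Dusp1 at chr17:26505590-26562128 (minus). Whole genes were counted, so no exon or isoform was resolved. Junb overlaps Prdx2 and Dusp1 overlaps Ergic1, each on the opposite strand, and the strand setting of the counting was not given in the sources used here, so reads at those overlaps could be counted for either gene.

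Promoter sequences, the 250 bases before the start in RefSeq (GRCm38.p6), were held for 7 of the 10 genes, that is for all but Egr1, Egr3 and Arc. The letters TGACG, the core of the cyclic AMP response element (CRE) through which CREB acts, occurred on 1 strand or the other in all 7, against 17.8% of 32544 mouse promoters of the same length. Of these, 4 are shown, because Fos is the classical example of the class, Nr4a1 and Nr4a3 carried the most matches and Dusp1 carried the full palindrome. Capitals mark TGACG or its reverse complement CGTCA, and each sequence is written 5′ to 3′ on the strand of the gene. Bases that M21 places in an exon are not shown, 152 bases for Nr4a3 and 47 for Dusp1. The window of Nr4a1 precedes the start of its shorter transcripts, inside an intron of the longest. The window of Dusp1 likewise lies inside the span of the gene given above, not before its outermost annotated start.
Fos, chr12:85473640-85473889, plus strand: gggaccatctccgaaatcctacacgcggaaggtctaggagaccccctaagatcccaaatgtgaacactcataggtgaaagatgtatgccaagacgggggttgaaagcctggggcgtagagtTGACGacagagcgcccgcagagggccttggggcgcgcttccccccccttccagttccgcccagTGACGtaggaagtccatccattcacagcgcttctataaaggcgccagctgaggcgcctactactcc
Nr4a1, chr15:101266596-101266845, plus strand: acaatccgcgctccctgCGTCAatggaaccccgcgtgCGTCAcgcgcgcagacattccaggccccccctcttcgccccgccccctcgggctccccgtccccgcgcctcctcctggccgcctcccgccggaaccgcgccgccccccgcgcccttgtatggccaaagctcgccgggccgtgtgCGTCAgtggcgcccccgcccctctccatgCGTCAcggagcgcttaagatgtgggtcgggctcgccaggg
Nr4a3, chr4:48045055-48045152, plus strand: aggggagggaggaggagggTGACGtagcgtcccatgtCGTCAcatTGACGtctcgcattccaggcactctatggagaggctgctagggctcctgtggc
Dusp1, chr17:26508520-26508722, minus strand: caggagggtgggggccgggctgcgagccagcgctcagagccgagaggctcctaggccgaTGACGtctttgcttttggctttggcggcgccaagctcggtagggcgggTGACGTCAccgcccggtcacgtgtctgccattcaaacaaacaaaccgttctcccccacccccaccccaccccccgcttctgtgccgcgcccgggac

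Nr4a1 and Nr4a3 each held 4 TGACG matches in the full window, a number reached by 0.138% of all promoters, and Nr4a3 had 3 of its 4 in the bases shown. Dusp1 held 3, with both ends of the palindrome TGACGTCA counted, and this full CRE was present in 1.55% of promoters. Fos and Npas4 held 2 each, where 3.92% of promoters held 2 or more, and Fosb and Junb held 1 each. The letters TATAAA lay 33 to 28 bases before the start of Fos, and 12.3% of promoters held them. The AP-1 site TGANTCA, present in 6.73% of promoters, and the CArG box bound by SRF, present in 1.48%, were in 0 of these 7 windows, which says only that the letters are not in these 250 bases. Both strands were searched for each motif. The letters are a description and are not evidence that a factor was bound in these tissues.

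**Figure D1:**
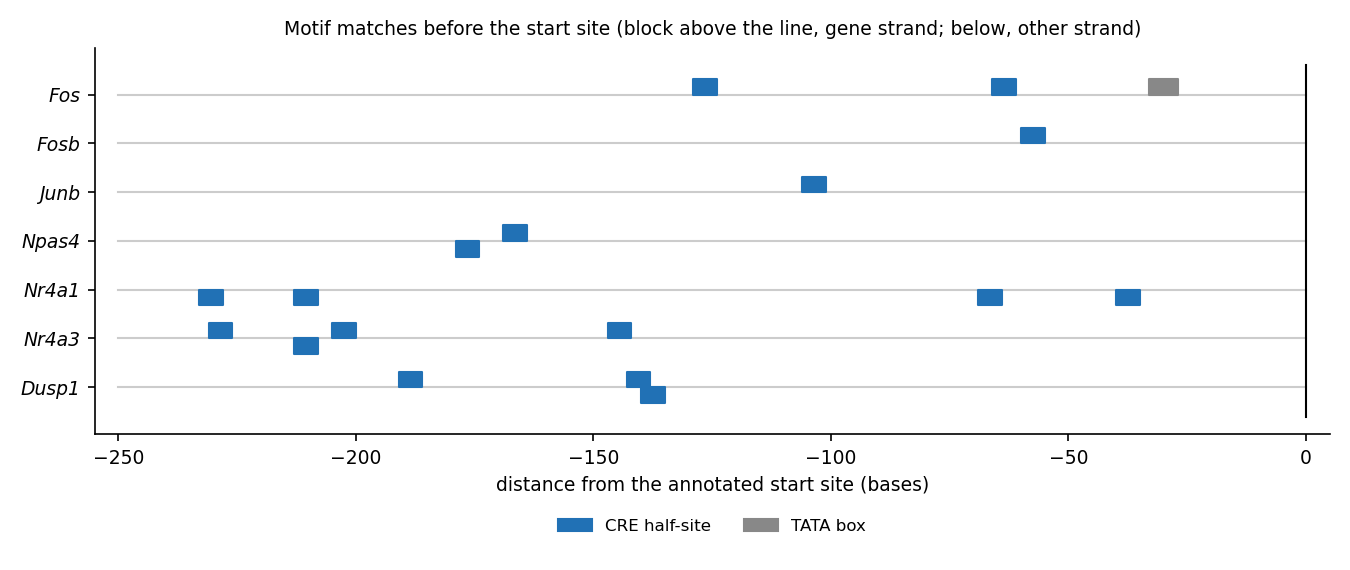
Positions of TGACG and TATAAA matches in the 250 bases before the RefSeq start of the 7 genes with a promoter entry; the x axis is distance from the start in bases, each row is a gene, and blocks above the line lie on the strand of the gene and blocks below it on the other. Nr4a1 and Nr4a3 carry 4 TGACG matches each, Dusp1 3, Fos and Npas4 2, and Fosb and Junb 1.

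All 10 genes passed the filter of 10 summed counts in every test, but their levels spanned a wide range. Per kilobase of exon, Egr1 was the most abundant in both regions, at 29.1 ± 10.5 CPM per kb in hippocampal and 46.0 ± 15.9 in frontal cortical libraries (mean ± SD, n = 20). It was followed in both by Junb (16.1 and 13.4), Arc (12.2 in each), Nr4a1 (7.46 and 6.43) and Fos (5.33 and 5.19). Nr4a3 ranked sixth in the hippocampus at 4.95 and seventh in the frontal cortex at 2.48, where Dusp1 (4.26 and 3.29) passed it. The lowest levels per kilobase were those of Npas4 (1.17 and 1.38), Fosb (0.790 and 1.79) and Egr3 (0.624 and 1.14). Of all neighbours in this order, only Egr1 and Junb were further apart than the larger of their SDs, in both regions, and the remaining neighbours did not differ beyond their spread. Levels of the separate regions were normalized separately. The methods name a library kit that covers whole transcripts and the key resources a kit that reads their 3′ ends, for which level does not scale with length. In plain CPM the hippocampal order was Egr1 (130.3), Arc (37.4), Junb (37.1), Nr4a3 (29.6), Nr4a1 (26.2), Dusp1 (14.1) and Fos (12.5), so Nr4a3 stood above Nr4a1 and Fos on that scale. In frontal cortical CPM Nr4a3 (14.9) likewise stood above Fos (12.2) and Dusp1 (10.9).

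Low counts set the limits for the rarer members. Egr3 was at 0 in 14 of 20 hippocampal and 10 of 20 frontal cortical libraries, although sampling of reads alone at its mean count of 4.10 and 8.35 would leave 0.388 and 0.0103 libraries at 0. Npas4 was at 0 in 10 and 6 libraries, Fosb in 6 and 2, Dusp1 in 0 and 3, and Fos in 0 and 1. The biological coefficient of variation fitted by edgeR for Egr1 was 0.378 (hippocampus) and 0.286 (frontal cortex), the smallest of the set, and for Egr3 2.40 and 1.48, the largest. These fitted values are drawn towards the trend for a gene's abundance. Arc, Junb and Nr4a1, with mean counts of 37.6 to 63.0, took intermediate values of 0.461 to 0.720.

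**Figure D2:**
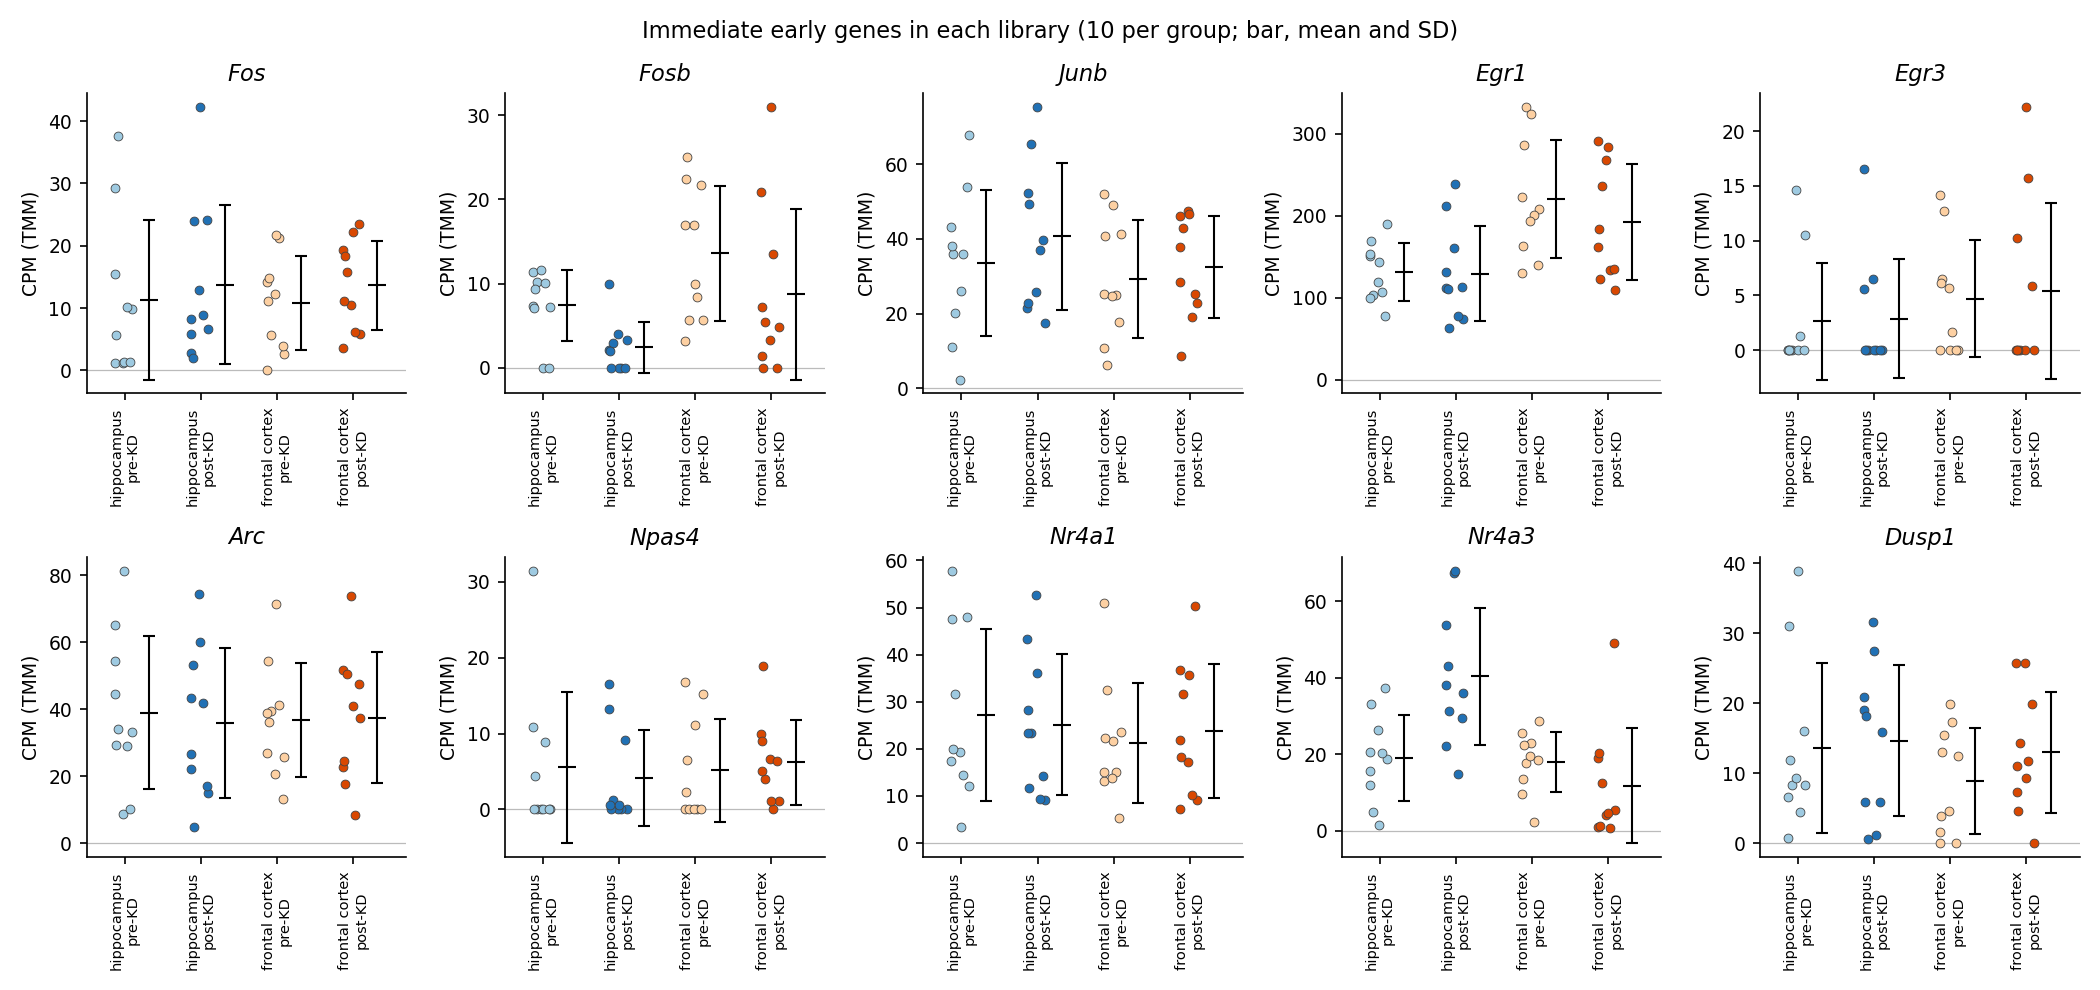
CPM of each immediate early gene in every library, by region and condition (n = 10 per group), with each point a library pooled from 6 mice and the mean and SD drawn beside the points. The pre-KD and post-KD values overlap for every gene in both regions, and hippocampal Nr4a3 spans 1.37 to 37.2 CPM pre-KD and 14.7 to 67.95 CPM post-KD.

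In the hippocampus, Nr4a3 was the member whose level was higher after post-KD than after pre-KD colonization at an unadjusted p under 0.05, and the other 9 genes did not pass the test. Nr4a3 lay at 1.37, 19.5 and 37.2 CPM (lowest, median, highest of 10) in pre-KD cohorts and at 14.7, 37.06 and 67.95 CPM in post-KD cohorts, and the ranges overlapped. In 8 of 10 donors the post-KD cohort was the higher, and the means were 18.96 ± 11.3 and 40.3 ± 17.9 CPM (SD, n = 10 each). The log2 fold change was 1.08 (SE 0.46, 95% confidence interval 0.19 to 1.98, edgeR quasi-likelihood test, p = 0.0190, adjusted p = 0.260), so it passed only without adjustment over 17529 genes. At an unadjusted p under 0.05, 1 of the 10 genes passed against 10.1% of all genes tested, and 0 passed after adjustment against 0.0057%. DESeq2 also called 1 and 0 of the members, where it called 569 of 20964 genes without adjustment, and the whole table held 221 such genes of 9509 with edgeR's filterByExpr and 348 of 17529 with the donor block, so the background share depends on the setting. In the same test the marker Prox1 of dentate granule cells (-0.57, p = 0.0256) and the striatal marker Ppp1r1b (-0.64, p = 0.0322), chosen after their values were seen, were lower post-KD without adjustment, and their part in the value for Nr4a3 was not tested. They were 1 of 5 hippocampal neuron and 1 of 6 striatal markers tested, and DESeq2 also called C1ql2, another granule cell marker, whose estimate was higher (0.78 with edgeR, p = 0.153). The call rested on single donors: without donor 1 the log2 fold change was 0.98 (p = 0.0528) and without donor 7 it was 0.84 (p = 0.0674). With the donor as a block it was 1.19 (edgeR, p = 0.0284), which did not pass the adjusted threshold. Without the cohorts of donors 9 and 10 it was 1.36 (p = 0.0102, adjusted p = 0.151). The means were then 17.1 ± 10.6 and 43.97 ± 18.2 CPM over the other 8 donors (n = 8 each).

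The other nuclear receptor of the set, Nr4a1, lay at 3.42, 19.6 and 57.8 CPM pre-KD and at 9.20, 23.4 and 52.6 CPM post-KD. Its log2 fold change was -0.11 (SE 0.48, p = 0.821), with 3 of 10 donors higher post-KD. Without the cohorts of donors 9 and 10 the estimate turned to 0.37 (edgeR, p = 0.540), with means of 20.7 CPM pre-KD and 26.7 CPM post-KD over the other donors, against 52.97 and 18.9 CPM in those of donors 9 and 10. The difference between Nr4a1 and Nr4a3 was not tested. Among the AP-1 genes, Fosb had the most negative estimate. It ranged over 0, 8.33 and 11.7 CPM pre-KD and 0, 2.02 and 9.95 CPM post-KD, with overlapping groups, and 7 of 10 donors were lower post-KD, 1 higher and 2 equal. The log2 fold change of Fosb was -1.59 (SE 1.17, p = 0.179, adjusted p = 0.900) and rested on 120 counts in all pre-KD libraries together and 32 in all post-KD libraries. Fos lay at 1.17, 7.76 and 37.6 CPM pre-KD and at 1.95, 8.56 and 42.2 CPM post-KD (log2 fold change 0.29, SE 0.77, p = 0.710). Junb spanned 2.33 to 67.8 and 17.6 to 75.3 CPM (0.28, SE 0.40, p = 0.479). For both of these the groups overlapped over most of their range.

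Egr1, measured most precisely, gave the narrowest bound on a difference. Its hippocampal values were 77.6, 131.3 and 189.7 CPM pre-KD and 63.0, 112.3 and 238.1 CPM post-KD, and the post-KD values enclosed the pre-KD ones. The log2 fold change of Egr1 was -0.02 (SE 0.21, p = 0.910), and 5 of 10 donors were higher post-KD. Arc, which like Egr1 follows synaptic activity, lay at 8.75 to 81.4 CPM pre-KD and 4.80 to 74.5 CPM post-KD (-0.12, SE 0.40, p = 0.767). Dusp1 (0.11, SE 0.72), Npas4 (-0.41, SE 1.22) and Egr3 (0.10, SE 1.40) had standard errors larger than their estimates. Without the cohorts of donors 9 and 10 Dusp1 was 0.60, Npas4 -0.80, Junb 0.50, Fos 0.17 and Arc -0.02, and 0 of these passed the test. Over the set, 5 estimates were above and 5 below 0, with a median of 0.04 against -0.0076 over all genes.

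**Figure D3:**
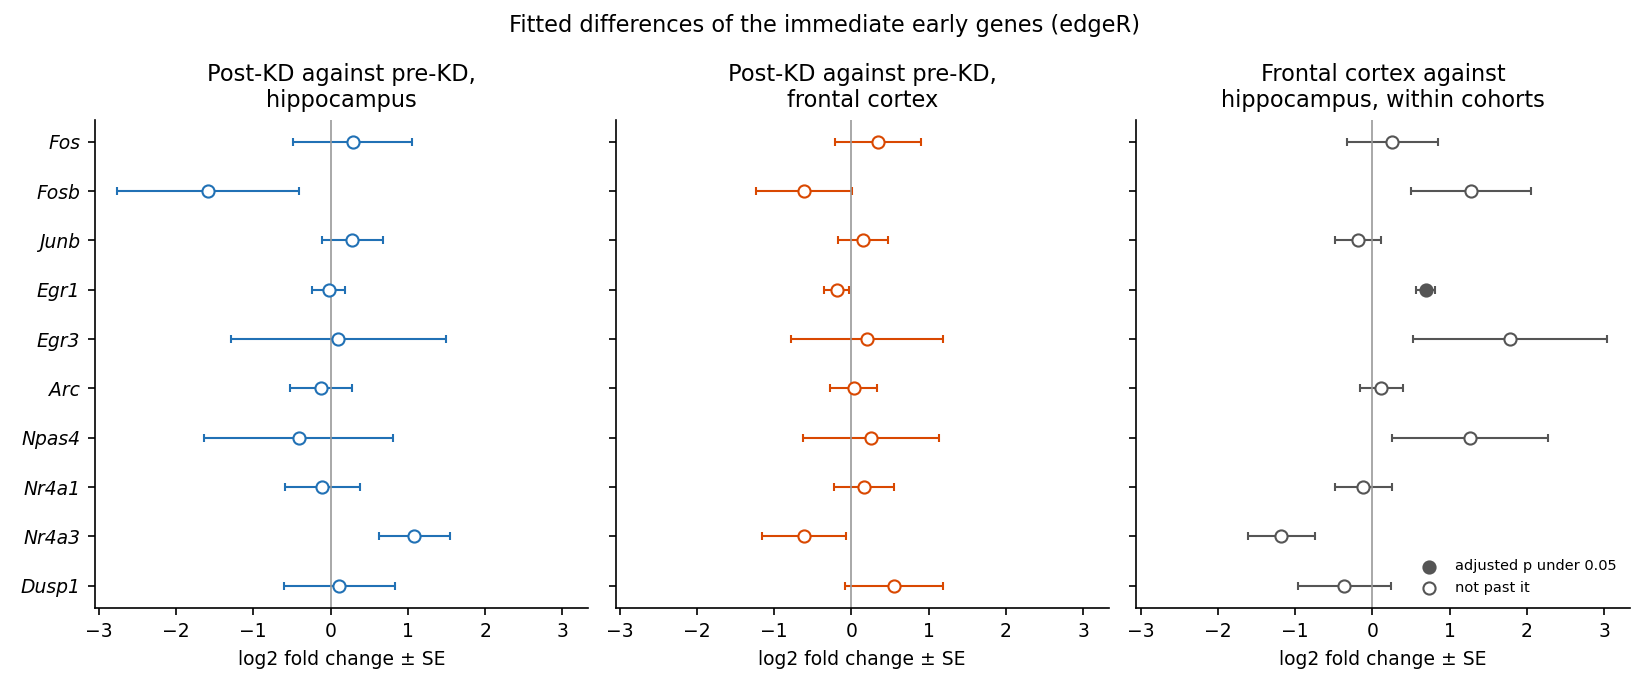
Log2 fold changes of the 10 genes, post-KD against pre-KD in each region and frontal cortex against hippocampus, as points with bars of 1 SE to either side from edgeR, filled where the adjusted p was under 0.05. Egr1 between regions (0.69, SE 0.12) is the only filled point, and the post-KD estimates for Nr4a3 point in opposite directions in the hippocampus (1.08) and the frontal cortex (-0.62).

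In the frontal cortex, none of the 10 genes passed the test of post-KD against pre-KD colonization. With edgeR 0 of 10 had an unadjusted p under 0.05, against 9.68% of 17873 genes, and 0 passed the adjusted threshold, against 0.0056%, and DESeq2 gave 0 at both thresholds. Nr4a3 lay at 2.23, 18.96 and 28.7 CPM pre-KD and at 0.562, 5.002 and 49.2 CPM post-KD, where most libraries were low and the highest was the post-KD library of donor 9. Its log2 fold change was -0.62 (SE 0.54, p = 0.258, adjusted p = 0.926), with means of 18.01 ± 7.88 and 11.7 ± 15.01 CPM (n = 10 each), and the post-KD cohort was the higher in 3 of 10 donors. This value moved with the donors included, and leaving out 1 donor weakened it to -0.41 at most (without donor 1, p = 0.453). Without donor 9 the log2 fold change was -1.24 (p = 0.0380, adjusted p = 0.473), and without donors 9 and 10 it was -1.63 (p = 0.0133, adjusted p = 0.249). Its means over those 8 donors were 18.5 ± 8.75 CPM pre-KD and 6.004 ± 6.49 CPM post-KD (n = 8 each). With the donor as a block, which the shared donors of the cohorts allow, it was -1.39 (p = 0.0293, adjusted p = 1.0). Of the marker genes, the haemoglobin genes Hba-a1 (0.49, p = 0.0016) and Hbb-bs (0.41, p = 0.0069), chosen after their values were seen, were higher post-KD without adjustment, and their part in these values was not tested.

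Egr1 lay at 129.7, 204.9 and 332.5 CPM pre-KD and at 108.8, 172.8 and 291.4 CPM post-KD in the frontal cortex, with largely overlapping groups. The log2 fold change of Egr1 was -0.19 (SE 0.16, p = 0.231, adjusted p = 0.912), 7 of 10 donors were lower post-KD, and leaving out 1 donor moved it between -0.34 (without donor 1, p = 0.0344, adjusted p = 0.446) and -0.092 (without donor 8, p = 0.574). The AP-1 genes Fosb (3.15, 13.5 and 25.0 CPM pre-KD against 0, 5.12 and 30.95 post-KD; log2 fold change -0.62, SE 0.62) and Fos (0, 11.8 and 21.8 against 3.66, 13.5 and 23.4; 0.34, SE 0.55) had estimates of opposite sign. Without the cohorts of donors 9 and 10 the estimates were -0.18 for Fosb and 0.13 for Fos, and with the donor block that of Fosb was -1.10. Junb (0.15, SE 0.33), Arc (0.03, SE 0.30) and Nr4a1 (0.17, SE 0.39) had the smallest SE after Egr1 and estimates near 0. Dusp1 had an estimate above 0 (0.55, SE 0.64, p = 0.389), with 5 of 10 donors higher post-KD, and Npas4 (0.25, SE 0.88) and Egr3 (0.20, SE 0.99) were at 0 in many libraries. Without donors 9 and 10 Dusp1 was 0.28, and with the donor block Dusp1 was 0.77 and Npas4 1.64 (p = 0.205). In all, 7 estimates were above and 3 below 0, with a median of 0.16 against 0.0087 over all genes.

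Whether the post-KD difference itself differed between regions was tested over all 40 libraries with a term for each cohort. For Nr4a3 the frontal cortical minus the hippocampal log2 fold change was -2.67 (SE 0.84, 95% confidence interval -4.33 to -1.02, edgeR, p = 0.00152, adjusted p = 1.0). It was the only member with an unadjusted p under 0.05, 1 of 10 against 2.22% of 19422 genes, and 0 members passed the adjusted threshold against 0.0154%. Leaving out the libraries of each donor in turn moved the estimate between -3.20 and -2.16, with p between 4.5e-04 and 0.0122, and without the cohorts of donors 9 and 10 it was -3.64 (p = 1.8e-04, adjusted p = 0.698). Without the cohort term it was smaller, -1.70 (p = 0.0179, adjusted p = 0.315), as the separate estimates of 1.08 and -0.62 give. The remaining 9 genes had p between 0.524 and 0.959. For Egr1 the difference was -0.13 (SE 0.24), and for Egr3 it was -1.42 with an SE of 3.61. Beside these values, some markers reached an unadjusted p under 0.05 in the same test, in the opposite direction to Nr4a3. They were 3 of 6 striatal markers (with Adora2a and Ppp1r1b), 2 of 4 blood genes (Hba-a1 and Hbb-bs) and 1 of 5 endothelial markers (Cldn5). The 2 other blood genes had estimates below 0, and 0 of these markers passed the adjusted threshold. DESeq2 called the genes named here and Folr1, a choroid plexus marker, without adjustment. These genes were chosen after their values were seen, and their part in the result for Nr4a3 was not tested.

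**Figure D4:**
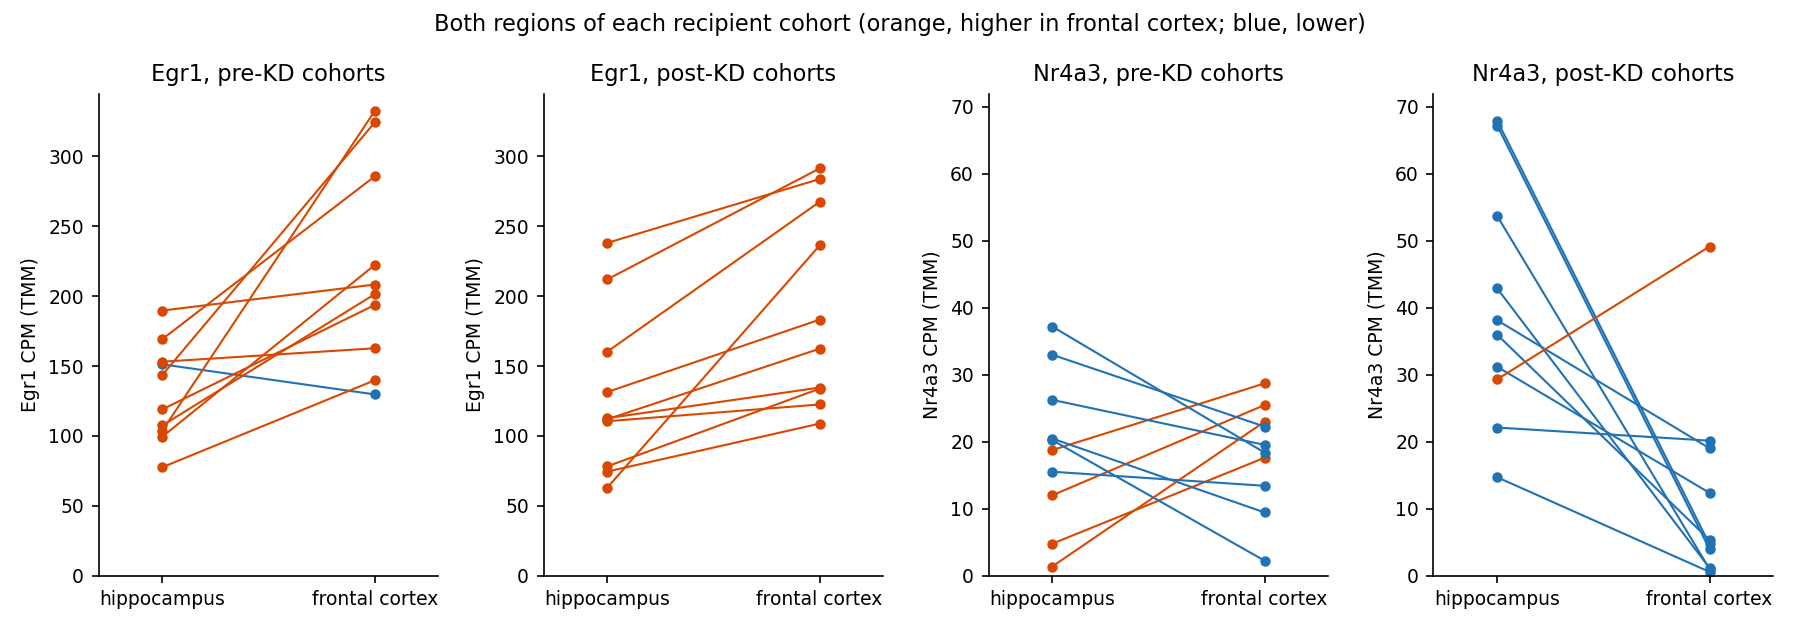
CPM (y axis) of Egr1 and Nr4a3 in the hippocampus and the frontal cortex, with a line joining both regions of each recipient cohort, orange where the frontal cortex was higher and blue where it was lower. Egr1 lines rise towards the frontal cortex in 19 of 20 cohorts, while Nr4a3 lines fall in 6 of 10 pre-KD and 9 of 10 post-KD cohorts.

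Between regions, Egr1 was higher in the frontal cortex than in the hippocampus of the same cohorts, and it was the one member that passed the adjusted threshold with edgeR. Hippocampal Egr1 spanned 63.0 to 238.1 CPM with a median of 115.9, and frontal cortical Egr1 spanned 108.8 to 332.5 CPM with a median of 197.6. The ranges overlapped, but by CPM normalized within each region the frontal cortex was higher in 19 of 20 cohorts, 9 of 10 pre-KD and 10 of 10 post-KD. The means were 130 ± 47.0 and 206 ± 71.1 CPM (SD, n = 20), and the log2 fold change was 0.69 (SE 0.12, 95% confidence interval 0.45 to 0.93, edgeR with a term per cohort, p = 1.5e-08, adjusted p = 2.6e-06). Every alternative gave 0.57 to 0.76 with an adjusted p of at most 0.00114, and 0.76 (adjusted p = 3.5e-06) without donors 9 and 10. Of the 10 genes, 1 was higher and 1 lower at an unadjusted p under 0.05, against 8.12% and 2.78% of 19422 genes, and 1 passed the adjusted threshold against 2.85%.

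The member lower in the frontal cortex was Nr4a3, at 0.562 to 49.2 CPM with a median of 15.5 against 1.37 to 67.95 CPM with a median of 27.8 in the hippocampus. It was lower in 15 of 20 cohorts, 6 pre-KD and 9 post-KD. The log2 fold change was -1.18 (SE 0.43, edgeR, p = 0.0064, adjusted p = 0.150), and it passed the adjusted threshold with DESeq2 only (-1.24, adjusted p = 0.0360). Without the cohorts of donors 9 and 10 it was -1.55 (p = 0.00286, adjusted p = 0.0941), and over all alternatives it ran from -1.55 to -0.90. This value averages over both conditions, between which the region difference of Nr4a3 itself differed without adjustment. The scarcer genes Fosb (1.28, SE 0.77, p = 0.0976), Egr3 (1.78, SE 1.26) and Npas4 (1.26, SE 1.004) had higher estimates in the frontal cortex that did not pass the test with edgeR. Over the alternatives Fosb ran from 0.85 to 1.68 (p = 0.0253 to 0.274), with an unadjusted p under 0.05 with DESeq2, without donor 5 and without the cohort term, and 0.94 without donors 9 and 10. Egr3 ran from 0.88 to 2.87 (p = 0.0325 to 0.590), with an unadjusted p under 0.05 without donor 6 only and 0.96 without donors 9 and 10, and Npas4 ran from 0.27 to 1.85 (p = 0.0911 to 0.724). Fos (0.26), Arc (0.12), Nr4a1 (-0.11), Junb (-0.18) and Dusp1 (-0.37) were within 1 SE of 0. The median over the 10 genes was 0.19 against 0.17 over all genes.

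Markers of the tissue dissected differed between frontal cortex and hippocampus as well, in a test that called the shares of all genes given for the members (8.12% higher and 2.78% lower without adjustment, 2.85% with it). Of 6 striatal markers tested 6 were higher in the frontal cortex and passed the adjusted threshold (median log2 fold change 3.23), while 9 of 10 choroid plexus markers were lower without adjustment and 8 of them with it. Of 6 cortical neuron markers, Rorb, Lamp5 and Foxp2 were higher and Fezf2 lower, all 4 after adjustment. Of the other lists, 3 of 4 blood, 3 of 5 endothelial and 1 of 5 microglia markers (C1qa, chosen after its values were seen) were higher without adjustment and 0 with it in edgeR, while DESeq2 called 1 blood and 1 endothelial marker after adjustment. Egr1 is also transcribed in striatal neurons, and the part of these tissue differences in the value for Egr1 was not tested.

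Related genes of the activity response were compared from 4 lists of other members of the pathway. Between hippocampal libraries of the post-KD and pre-KD groups, 0 of 17 other activity-induced transcription factors, 0 of 15 signalling and feedback genes, 0 of 10 secreted and synaptic effectors and 0 of 12 upstream regulators had an unadjusted p under 0.05 with edgeR, against 10.1% of all genes tested, and DESeq2 gave 0 of each as well. The smallest p were those of Sik1, a kinase that restrains CREB coactivators (2.84, SE 1.43, p = 0.05003), and Gem, a small GTPase (-2.96, p = 0.0578), and those of the remaining lists were Btg2 (1.08, p = 0.407), Ptgs2 (-1.65, p = 0.205) and Camk2a (-0.15, p = 0.108). For the frontal cortex, where 9.68% of all genes passed, 1 of all these genes passed without adjustment, Camk2a, the kinase that couples calcium entry to synaptic change, which was lower post-KD (-0.20, SE 0.07, p = 0.0082, adjusted p = 0.152). There Atf3 (2.37, p = 0.0943), Rgs2 (-0.24, p = 0.0949), Sorcs3 (-0.38, p = 0.0866) and Crebbp (-0.25, p = 0.0609) did not. DESeq2 added 1 gene without adjustment, Mef2c. In the test of the difference between regions 0 genes of the 4 lists passed at either threshold, with edgeR or DESeq2.

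Between regions these lists held called genes in both directions, where 8.12% of all genes were higher and 2.78% lower without adjustment and 2.85% passed with it. Among 17 transcription factors tested, Nr4a2, the third nuclear receptor of the Nr4a family, was lower in the frontal cortex (-1.12, SE 0.13, adjusted p = 6.7e-15), as were the AP-1 genes Jun (-1.05, SE 0.20, adjusted p = 1.4e-05) and Fosl2 (-1.06, SE 0.32, adjusted p = 0.0346), while Jund was higher (0.35, SE 0.10, adjusted p = 0.0218). Egr2 (2.77) and Ier5 (0.57) were higher without adjustment only. Of 15 signalling and feedback genes, Rgs2, a regulator of G protein signalling (0.94, SE 0.13, adjusted p = 6.1e-10), and Trib1, a pseudokinase (1.09, SE 0.31, adjusted p = 0.0214), were higher. Of 10 effectors, Homer1, a postsynaptic scaffold, was higher after adjustment (0.75, SE 0.13, adjusted p = 7.8e-07), whereas Scg2 (0.43) was higher and Bdnf (-0.54) and Ptgs2 (-2.60) lower without adjustment only with edgeR. DESeq2 called 2 of the 10 effectors after adjustment, Homer1 and Scg2, and added Vgf without adjustment. Of 12 upstream regulators, Mef2c (0.60, SE 0.07, adjusted p = 4.2e-15), Camk4 (0.49, adjusted p = 3.3e-04) and Crtc1 (0.61, adjusted p = 0.0260) were higher, and Srf (-0.50) was lower without adjustment with edgeR and after adjustment with DESeq2. The list medians were 0.40, 0.21, 0.28 and -0.033 against 0.17 over all genes. Nr4a2 and Nr4a3 thus had estimates of the same sign, and with edgeR that of Nr4a2 passed the adjusted threshold and that of Nr4a3 did not.

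Covariation between the libraries of a region was described over the 45 pairs that the 10 genes form, on log2 CPM. In the hippocampus the median Pearson r was 0.0965 (lowest -0.338, highest 0.586) and 32 pairs, 71.1%, were above 0, against 53.3% of all gene pairs. The frontal cortical median was 0.146 (-0.469 to 0.625) and 34 pairs, 75.6%, were above 0, against 51.4%. At an unadjusted p under 0.05 there were 3 hippocampal and 6 frontal cortical pairs, against 6.1% and 6.4% of the correlations of a member with any gene, and 0 passed after adjustment over all of those. The values of a pair come from the same libraries and share their depth and composition.

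Egr1 took part in the closest pairs of both regions, with Arc and with Dusp1. Frontal cortical Egr1 with Dusp1 gave r = 0.625 (permutation p = 0.00326, adjusted p = 0.648; Spearman's rho 0.629, permutation p = 0.00359), and it was 0.813 pre-KD and 0.639 post-KD, and 0.534 without the 2 libraries farthest from the median of Egr1. Egr1 with Arc there gave r = 0.575 (permutation p = 0.00752, adjusted p = 0.672; rho 0.559, permutation p = 0.0117), with 0.576 pre-KD, 0.589 post-KD and 0.668 without those 2 libraries. Both pairs thus kept their sign in each condition. In the hippocampus Egr1 with Arc gave r = 0.586 (permutation p = 0.00649, adjusted p = 0.721; rho 0.481, permutation p = 0.0337), with 0.397, 0.701 and 0.412 in the same order, and Egr1 with Dusp1 gave r = 0.556 (permutation p = 0.0114, adjusted p = 0.748; rho 0.522, permutation p = 0.0196), with 0.293, 0.711 and 0.385. Without the cohorts of donors 9 and 10 these 4 values were 0.692, 0.671, 0.537 and 0.62. The third hippocampal pair was Nr4a1 with Nr4a3 (r = 0.486, permutation p = 0.0299, adjusted p = 0.796). Its rho was 0.337 (permutation p = 0.146), and its r was 0.2835 without the 2 libraries farthest from the median of Nr4a1. The other frontal cortical pairs were Fos with Dusp1 (0.535), Junb with Arc (0.463), Arc with Nr4a1 (0.453) and, with a negative sign, Fosb with Npas4 (-0.469). Without the 2 libraries farthest from the median of the first gene named, their r was 0.4565, 0.5779, 0.189 and -0.3486 in the same order.

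**Figure D5:**
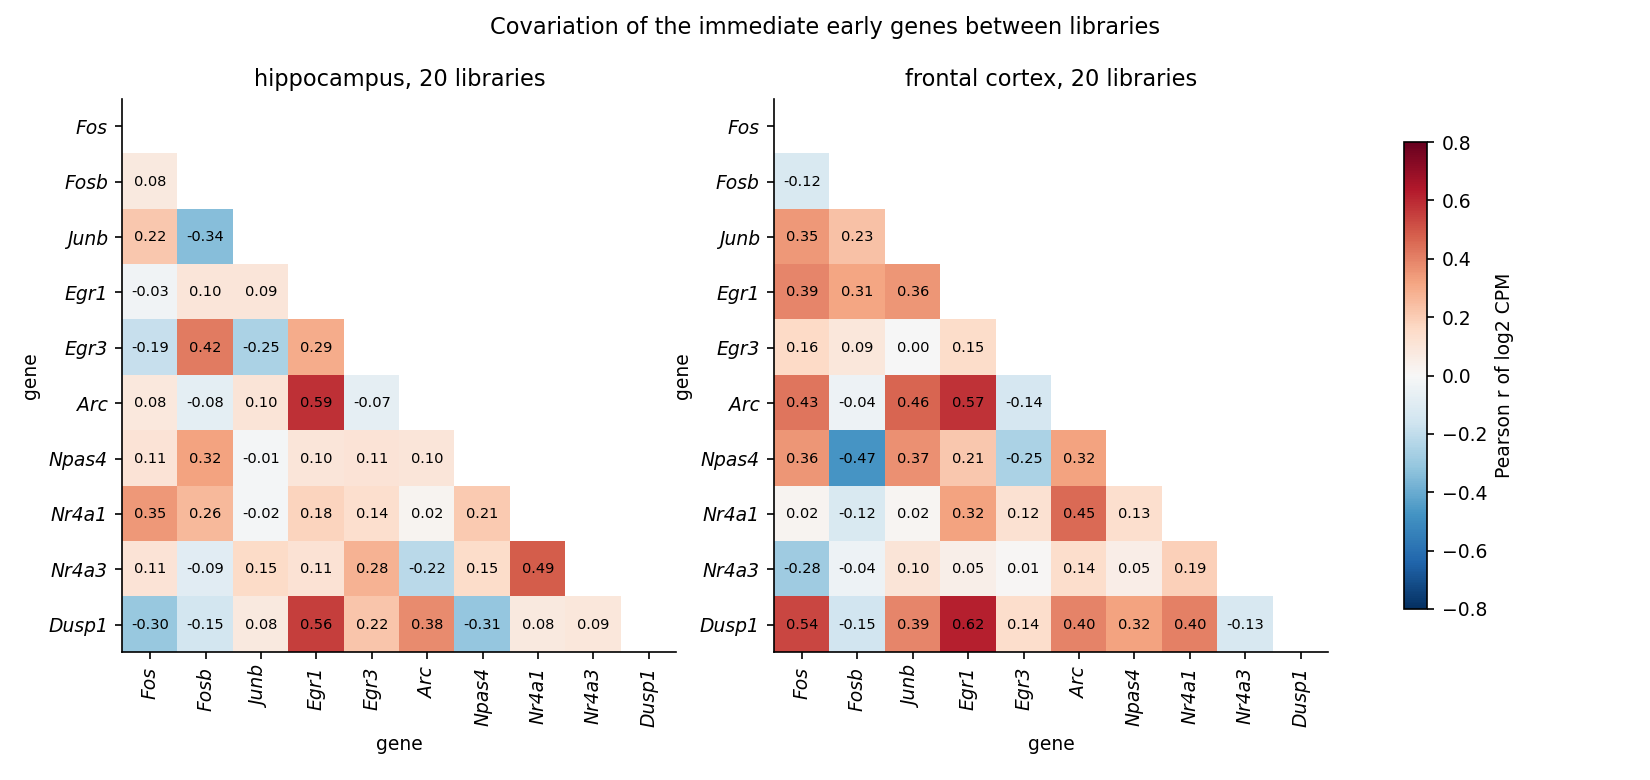
Pearson r between the log2 CPM of each pair of the 10 genes over the 20 libraries of a region, printed in each cell and coloured from blue (negative) to red (positive). The highest values are those of Egr1 with Dusp1 in the frontal cortex (0.625) and of Egr1 with Arc in the hippocampus (0.586), and 32 and 34 of the 45 pairs in the hippocampus and the frontal cortex are above 0.

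A measure of library composition moved with some of these levels. The share of counts on Gm42418, a gene that overlaps a ribosomal RNA sequence, was 8.63% to 18.02% per library, and its correlation with the members ran from -0.23 to 0.703 in the hippocampus, highest for Npas4 and Fosb (0.514), and from -0.0618 to 0.521 in the frontal cortex, where Junb (0.521), Dusp1 (0.435) and Egr1 (0.423) were highest. Correlations with total counts ran from -0.415 for Dusp1 to 0.190 in the hippocampus and from -0.282 to 0.454 for Fos in the frontal cortex. These are descriptions over 20 libraries, and their part in the pairs was not tested. No library was high for all members: the number of the 10 genes above their regional median ranged over 2 to 8 in the hippocampal and 0 to 9 in the frontal cortical libraries.

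Levels in the 2 regions of a cohort were then compared over the 20 cohorts, which tells how far a cohort high in one region was high in the other. Egr1 gave r = 0.467 (permutation p = 0.0374, adjusted p = 0.914 over 16355 genes; rho 0.406, permutation p = 0.0757), with 0.137 among pre-KD and 0.648 among post-KD cohorts, and 0.544 without the 2 cohorts farthest from the median. Egr1 was the 1 member at an unadjusted p under 0.05, against 5.28% of genes, and 0 passed after adjustment. After removal of the condition means its p was 0.05504, and without the cohorts of donors 9 and 10 r was 0.462 (permutation p = 0.0704). Over these and the other alternatives the r of Egr1 ran from 0.459 to 0.484. Arc gave r = 0.262 (permutation p = 0.265), which differed in sign between pre-KD (0.837) and post-KD (-0.137) cohorts, and the pooled value did not hold within them. Nr4a3 gave -0.346 (permutation p = 0.137), and its r was weaker within conditions, at -0.178 pre-KD and -0.154 post-KD. The median over the 10 genes was 0.131 against -0.0011 over all genes.

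The genes whose levels followed Egr1 most closely were picked by their r in each region. A lower r in the other region follows in part from that choice, and the difference was not tested. In the hippocampus the picked genes were Gm44643 (r = 0.779), Zfp511 (0.766), Rbm11 (0.755), Notch3 (0.708) and Kcnh4 (0.702) over 20 libraries, all with mean counts of 4.45 to 9.0, and their r with Egr1 in the frontal cortex was -0.413 to 0.225. The frontal cortical ones were Kyat3 (0.816), Mir6236 (0.789), Uck1 (0.744), Zfp939 (0.742) and 4932438A13Rik (0.725), with -0.116 to 0.173 in the hippocampus. The smallest adjusted p over all genes was 0.426 for hippocampal and 0.4662 for frontal cortical libraries, so 0 of these passed. The other 9 members had a median r with Egr1 of 0.113 in the hippocampus, with 8 above 0, and of 0.324 in the frontal cortex, with 9 above 0, against 0.0268 and 0.0418 over all genes. The other lists had medians from -0.244 (blood markers) to 0.170 (striatal markers) in the hippocampus and from -0.164 (blood markers) to 0.261 (other activity-induced transcription factors) in the frontal cortex. In the hippocampus the striatal, endothelial (0.162) and cortical neuron markers (0.132) lay above the members, as did the other activity-induced transcription factors (0.146) and the signalling genes (0.121).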

How the data were processed

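Hippocampal and frontal cortical RNA was pooled from 6 mice per cohort. The authors deposited 1 table per region of unnormalized read counts for 47643 Ensembl genes, made per the labels with FastQC 0.11.5, STAR 2.5.2a, SAMtools 1.3 and HTSeq 0.6.0 on mm10. All 40 columns were used, 0 pairs of libraries were identical, and 47224 identifiers matched GENCODE M21 while 419 did not. The strand setting of the authors' counting is not given in the sources used here.

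Genes with at least 10 summed counts were tested with edgeR 4.0.16 (R 4.3.3, quasi-likelihood test, TMM normalization, Benjamini-Hochberg adjustment over all genes of a fit, threshold 0.05 with and without adjustment): post-KD against pre-KD in each region, and, over 40 libraries with a term per cohort, region and the difference between regions in the post-KD change. SE was the size of the log2 fold change divided by the square root of F, and intervals are normal approximations from it. CPM are TMM-normalized within a region. Correlations used log2 CPM (prior count 2) and 100000 permutations, for which 1e-05 is the smallest p (Python 3.11.15, numpy 2.4.6, pandas 2.3.3, scipy 1.17.1, matplotlib 3.10.9). Alternatives were DESeq2 1.42.0, other filters and size factors, a donor block, a donor-group covariate, a prior count of 0.5, no cohort term, leaving out each donor, and, added after seeing the data, leaving out donors 9 and 10. The procedure was also run on simulated data drawn without cohort or donor effects, so that run does not speak to such effects here.

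The members, the 4 activity lists and the lists of hippocampal, cortical, striatal, choroid plexus, blood, endothelial, microglia and glucocorticoid-responsive genes were chosen with earlier results of these data known. Named genes are the members, the genes that passed a threshold or had the smallest p per activity list and comparison, and the 5 that follow Egr1 most closely in each region. Others are stated as chosen after their values were seen, except markers. Values of 1 marker gene are not reported here. Donors link pre-KD and post-KD cohorts by design; after removal of condition means the correlation across genes within a donor was -0.028 to 0.0299 in the hippocampus and -0.0561 to 0.0313 in the frontal cortex (genes averaging at least 20 counts). Totals of 1140756 to 2095352 counts per library limit precision for genes of few counts.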

Additional observations from a re-analysis of the deposited data

Results flagged for a closer look

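In 5 of 40 groups of 10 libraries, 1 library lay apart from the others by Dixon's criterion for a group of 10 (the gap to the nearest library as a share of the group's range), which chance gives in about 1 in 20 groups where values are normally distributed, as CPM of low counts with many zeros are not. Donor 5 accounts for 3 of them, all in the hippocampus: Fosb at 9.95 CPM (12 counts, next highest 4.05 CPM) and Egr3 at 16.6 CPM (20 counts, next 6.48) in its post-KD library, and Npas4 at 31.4 CPM (43 counts, next 10.8) in its pre-KD library. In the frontal cortex Npas4 reached 18.9 CPM (33 counts, next 9.93) in the post-KD library of donor 8, and Nr4a3 reached 49.2 CPM (84 counts, next 20.2) in the post-KD library of donor 9, one of the cohorts with Y-linked transcripts. The cause was not tested.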

How the results depend on the processing

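Egr1 between regions kept its direction and its side of the adjusted threshold under every alternative run. With DESeq2, 2 members passed the adjusted threshold between regions, against 1. Leaving out 1 donor moved the hippocampal members passing without adjustment between 0 and 1, with 0 without donors 1 and 7, and the frontal cortical ones between 0 and 1, with 1 without donors 1 and 9. The frontal cortical number was also 1 with a donor block and 1 without donors 9 and 10, against 0. Between the regions of a cohort 0 members passed with condition means removed and 0 without donors 9 and 10, against 1, and frontal cortical pairs fell to 2 without those donors, against 6. The donor block changed no other call of a member.

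Directions that turned, all without passing the test, were as follows. Without the cohort term, Fos was -0.0098 between regions and 0.050 in the difference between regions, where Egr3 was 0.11. With the donor block, hippocampal Egr3 was -0.13, Npas4 0.37 and Dusp1 -0.048, and frontal cortical Egr3 -1.14 and Arc -0.044. With the donor group, hippocampal Egr3 was -0.12 and Npas4 0.18. Without donors 9 and 10, Nr4a1 was 0.14 between regions, 0.37 in the hippocampus, -0.087 in the frontal cortex and -0.47 in the difference, where Arc was -0.054 and Dusp1 -0.30, and frontal cortical Npas4 was -0.10. Correlations between regions turned for Fosb (-0.086, condition means removed) and Nr4a1 (0.299, without donors 9 and 10). Leaving out 1 donor also turned, between regions, Arc (-0.030 to 0.21) and Nr4a1 (-0.25 to 0.079), and in the difference between regions Fos (-0.53 to 0.48), Junb (-0.53 to 0.068), Egr3 (-3.23 to 0.33), Arc (-0.18 to 0.40) and Nr4a1 (-0.38 to 0.38). In the hippocampus it turned Fos (-0.22 to 0.63), Egr1 (-0.14 to 0.12), Egr3 (-1.10 to 0.86), Arc (-0.41 to 0.032), Npas4 (-0.77 to 0.047), Nr4a1 (-0.34 to 0.096) and Dusp1 (-0.12 to 0.43). In the frontal cortex it turned Junb (-0.033 to 0.31), Egr3 (-0.56 to 0.64), Arc (-0.21 to 0.17), Npas4 (-0.080 to 0.72) and Nr4a1 (-0.14 to 0.31).

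Counts over all genes moved more. Hippocampal unadjusted calls were 1762, and 2931 with every gene, 221 with filterByExpr, 569 with DESeq2 and 348 with the donor block; adjusted calls were 1, and 1291 with every gene. Frontal cortical unadjusted calls were 1731, and 3035, 407, 756 and 548 in the same order; adjusted calls were 1, and 2 with DESeq2 and 3 with the donor block. Between regions, adjusted calls were 554, and 1026 with DESeq2 and 1935 without the cohort term, where unadjusted calls were 3475 against 2117. In the difference between regions they were 431 without and 3 with adjustment, and 948 and 0 with DESeq2 and 1767 and 348 without the cohort term. Of the adjusted calls between regions 69.5% were higher in the frontal cortex, 62.9% with RLE size factors, 65.3% with DESeq2 and 58.4% without the cohort term, and the median of all genes was 0.142, 0.016 and 0.025 in these alternatives, against 0.17. The causes were not tested. Low counts limit Egr3, Npas4 and Fosb most.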

Other observations

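Genes that respond to glucocorticoids, hormones of the stress response, were listed beside the immediate early genes because stress also induces the latter. Of the 8 genes, 0 had an unadjusted p under 0.05 with edgeR or DESeq2 for post-KD against pre-KD colonization in either region or for the difference between regions, where 10.1% (hippocampus), 9.68% (frontal cortex) and 2.22% (difference) of all genes passed with edgeR, so that 0 of 8 says little of the list. Their summed level spanned 688 to 1567 CPM in pre-KD and 815 to 1220 CPM in post-KD hippocampus. Between regions, Mt2, which encodes a metallothionein, was lower in the frontal cortex (log2 fold change -0.46, adjusted p = 2.7e-04) and Cdkn1a, which encodes a cell cycle inhibitor, was higher (1.08, adjusted p = 0.0172). The microglia markers summed to 77.0 to 234 CPM in the hippocampus and 106 to 205 CPM in the frontal cortex, and 0 of 5 passed without adjustment for post-KD against pre-KD colonization in either region. These genes were named after their values were seen.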
